A study of Mus musculus with 26 samples.

Results

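The genes described here encode the vacuolar proton pump (V-ATPase) and the enzymes and membrane proteins of the lysosome. They were chosen by name and not by a rule on a measured value, though earlier results of these data were known. Of 41 genes, 40 were listed in every table of the study, among the 8576 transcripts of each transgenic table and the 9561 of the table for LRRK2 KO. *Atp6v1g2* was in none. Of the 40, 15 belong to the V-ATPase (5 subunits of the membrane sector V0, 8 of the catalytic sector V1 and 2 accessory proteins) and 25 to the lysosome (17 proteins of the lumen and 8 of the membrane).

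The study profiled ribosome footprints, the mRNA fragments that ribosomes protect from nuclease, beside RNA-Seq, in the striatum of C57BL/6 mice. The labels give an age of 3 months, the lower end of the age range in the paper. Lysates were divided between footprinting and RNA-Seq, so samples with both assays are paired. The GS LRRK2 TG mice expressed G2019S LRRK2, a kinase-activating mutant, and the GS/DA LRRK2 TG mice expressed G2019S/D1994A LRRK2, in which the kinase is dead. Both transgenes came from high copy number lines under a Tet-off promoter driven by CaMKII-tTA, which acts in forebrain neurons, and doxycycline, given in the breeding cages until weaning, kept them silent early in life. Their controls were non-transgenic mice (non-TG control), and LRRK2 KO mice, which lack LRRK2, were set against WT mice. Each library came from the pooled caudate putamen of 3 mice of mixed sex. The labels list 3 footprinting and 3 RNA-Seq libraries of non-TG control, 2 and 2 of GS LRRK2 TG, 2 and 2 of GS/DA LRRK2 TG, and 3 and 2 each of WT and LRRK2 KO. Both transgenic comparisons use non-TG controls, so they are not independent of each other.

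The V-ATPase pumps protons into lysosomes, synaptic vesicles and other compartments. Its cytosolic V1 sector hydrolyses ATP and turns a rotor, and this rotor drives protons through the membrane-embedded V0 sector. Lysosomal hydrolases work in the acid that the pump provides, are made at the endoplasmic reticulum like the lysosomal membrane proteins, and several of them are mutated in storage diseases of the brain. LRRK2 is a kinase linked to Parkinson's disease that phosphorylates Rab GTPases and is recruited to damaged lysosomes.

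The deposited tables hold a mean of normalized reads in the coding sequence (CDS) for each group and assay. Translational efficiency (TE) is the log2 ratio of the footprinting mean to that of RNA-Seq. In 10 of the 12 columns of means, the arithmetic of a mean of 2 libraries let the reads of each library be recovered, and the library with fewer reads is called the shallower and the other the deeper library. The means of the non-TG control in the GS LRRK2 TG table could not be taken apart. Recovered footprinting libraries held 7516280 to 19758761 reads in the transgenic tables and 2865413 to 6051183 in the LRRK2 KO table. RNA-Seq libraries held 8696465 to 14546606 and 3151267 to 10879892. Each resolved mean thus rests on 2 libraries, and group means carry no error of their own.

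*Lrrk2* was checked against the labels first. Its normalized footprints were 7052 and 3320 in the shallower and deeper libraries of GS LRRK2 TG, beside a mean of 2524 in the non-TG control of the same table. They were 4766 and 7267 in GS/DA LRRK2 TG against 1224 and 1445 in non-TG control, and 150 and 102 in LRRK2 KO against 690 and 400 in WT. The footprints of every recovered transgenic library were above the control mean and those of both LRRK2 KO libraries below WT. RNA-Seq reads of *Lrrk2* separated LRRK2 KO, at 270 and 423, from WT, at 733 and 1278. They did not separate the transgenic mice, with 5038 and 404 in GS/DA LRRK2 TG against 560 and 5233 in non-TG control.

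In the LRRK2 KO table the libraries of a group stood apart for most members. Footprints of all 25 lysosomal members were lower in the shallower than in the deeper library, in WT (median log2 ratio -1.44) and again in LRRK2 KO (median -1.77), while the median of all transcripts was 0.014 and 0.012. Prosaposin (*Psap*), the precursor of the activators of sphingolipid hydrolases, had 2491 and 8856 normalized footprints in the shallower and deeper WT libraries, and 2262 and 9688 in those of LRRK2 KO. Acid α-glucosidase (*Gaa*), which breaks down glycogen, had 502 and 2008 in WT and 480 and 2175 in LRRK2 KO. For both genes the genotypes overlapped and the libraries did not.

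The pump was divided by the same libraries, and its membrane-inserted members lay on the side of the lysosome. The 9 V-ATPase members made in the cytosol, the V1 subunits with the peripheral V0 subunit *Atp6v0d1*, had median log2 ratios of 0.28 in WT and 0.18 in LRRK2 KO. The 6 members that are inserted into the endoplasmic reticulum membrane had medians below 0 in both, -0.87 in WT, with 5 of 6 below 0 in WT and 6 of 6 in LRRK2 KO. *Atp6ap1*, a glycoprotein that assists pump assembly and the lowest of these, had 584 and 2014 footprints in the WT libraries and 625 and 2116 in those of LRRK2 KO. *Atp6v0a1*, the large membrane subunit of neuronal V0 and the highest of these, had 1920 and 1807 in WT and 1810 and 1927 in LRRK2 KO. The split of the pump by site of synthesis was chosen after these values were seen. Base composition differed along with it. Over the 40 members, the footprinting ratio and the GC content of the CDS gave Pearson values of -0.51 in WT and -0.30 in LRRK2 KO. The corresponding values were -0.51 and -0.21 over transcripts with a mean above 300 in the group. This filter was not put on the members, so the sets are not alike in level.

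**Figure D1:**
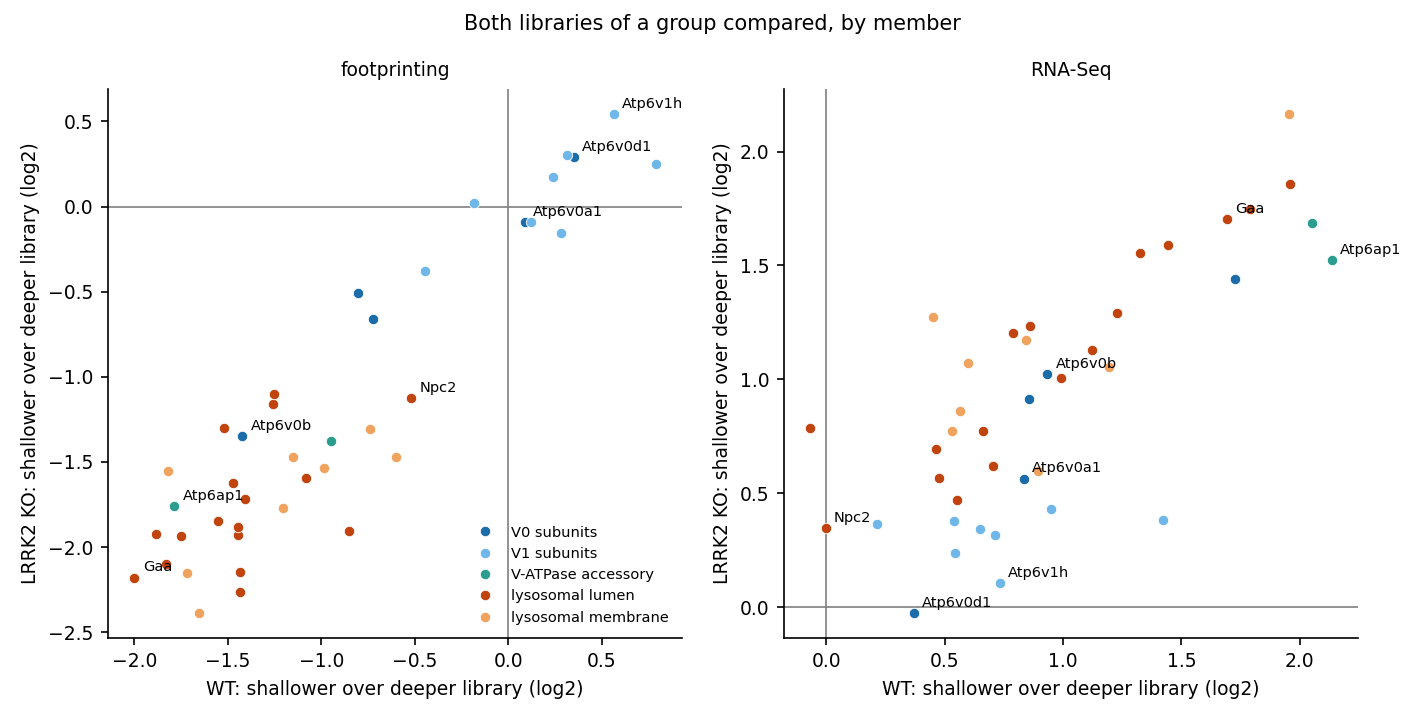
Log2 ratio of the shallower to the deeper library for the 40 members in the LRRK2 KO table, WT on the horizontal and LRRK2 KO on the vertical axis, with footprinting on the left and RNA-Seq on the right and each point a gene. In footprinting all 25 lysosomal members lie below 0 on both axes, from -0.52 to -2.00 in WT and from -1.10 to -2.39 in LRRK2 KO, while V1 subunits lie between -0.45 and 0.79.

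In RNA-Seq of this table the shallower and deeper libraries were named apart from those of footprinting. Which of them came from the same sample was not determined. The paper lists mapped reads of both assays for each sample, but these were not used to join libraries. Reads of 38 of 40 members in WT and 39 of 40 in LRRK2 KO were higher in the shallower library, with medians of 0.84 and 0.89 beside -0.0085 and -0.0058 for all transcripts. The accessory subunits stood highest in WT, where *Atp6ap1* had 2557 and 582 reads and *Atp6ap2*, the prorenin receptor, had 1281 and 309. Lysosomal membrane genes not among the members showed the same footprinting contrast, with 12 of 13 listed genes below 0 in WT and 13 of 13 in LRRK2 KO and medians of -1.26 and -1.23. Footprints of astrocyte markers summed to 5445 and 10253 in the WT libraries and 4760 and 10618 in those of LRRK2 KO, and those of oligodendrocyte markers to 23934 and 17570, and 21262 and 19959. Those of striatal spiny neuron markers summed to 27764 and 39463 in WT and 27986 and 41710 in LRRK2 KO, with median log2 ratios of -1.08 and -1.15. The microglia list is left out here, so these sums do not cover every cell type. The part of cell composition in these differences was not tested, and in bulk tissue fewer cells of a type and less RNA per cell cannot be told apart.

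In the transgenic tables, RNA-Seq libraries of a group differed by base composition. Across the 40 members, the log2 ratio of the shallower to the deeper library was higher where the CDS held more GC in GS LRRK2 TG (Pearson 0.75) and in non-TG control (0.73), and lower in GS/DA LRRK2 TG (-0.79 over 39 members), where the roles of shallower and deeper library were exchanged. Genes are not independent replicates, so these values are descriptions. Transcripts with a mean above 300 in the group, a filter not put on the members, gave 0.76, 0.75 and -0.78. *Atp6v0c*, the main proteolipid of the rotor ring, whose CDS is 58.7% GC, had 11887 and 1106 normalized reads in GS LRRK2 TG. It had 10267 and 1080 in non-TG control, and 1280 and 11375 in GS/DA LRRK2 TG. *Atp6v1a*, the catalytic subunit, had the opposite pattern in the same libraries, with 1164 and 3669, then 2259 and 3924, then 5252 and 2128. Within each group the libraries lay further apart than the group means, for *Atp6v0c* by nearly the whole level of the gene. Footprints of the members were closer, with a median log2 ratio of 0.17 in GS LRRK2 TG, -0.034 in non-TG control (37 members resolved) and -0.080 in GS/DA LRRK2 TG.

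**Figure D2:**
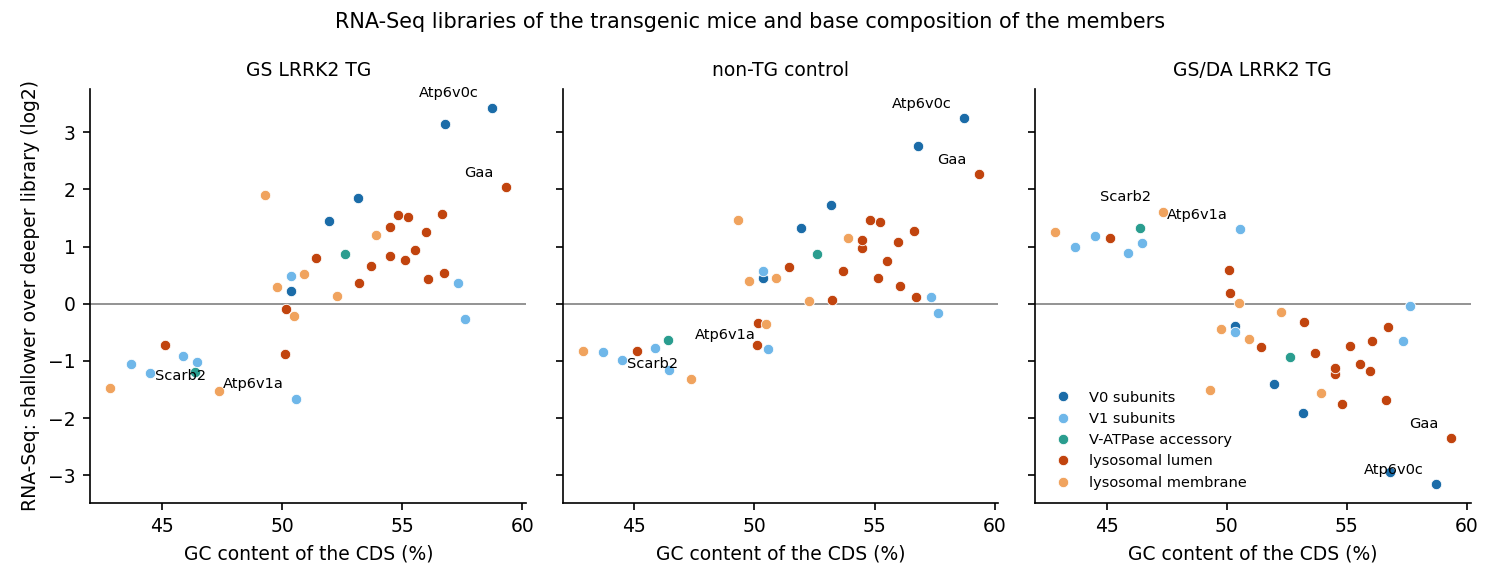
RNA-Seq log2 ratio of the shallower to the deeper library (vertical) against the GC content of the CDS in percent (horizontal) for each member in GS LRRK2 TG, non-TG control and GS/DA LRRK2 TG. *Atp6v0c* sits at 3.43, 3.25 and -3.15 and *Gaa* at 2.04, 2.27 and -2.35, and the library matched from the values to the shallower one of non-TG control is the deeper one in GS/DA LRRK2 TG (r = -0.97 over all transcripts used).

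Footprint density, in normalized footprints per kilobase of CDS, spanned a wide range within the pump. In non-TG control of the GS LRRK2 TG table, *Atp6v0c* had 21810, the highest density of any member, followed by the stator subunit *Atp6v1e1* with 16085. Among the other V0 subunits, *Atp6v0e2* had 6571, *Atp6v0d1* 6184, *Atp6v0b* 2585 and *Atp6v0a1* 1590 footprints per kilobase. The V1 subunits below *Atp6v1e1* were closer together, from 7732 for *Atp6v1b2*, which forms the catalytic ring with *Atp6v1a*, to 3366 for the regulatory subunit *Atp6v1h*. *Atp6v1a* itself had 4228. The accessory proteins *Atp6ap1* and *Atp6ap2* had 3246 and 3240 footprints per kilobase.

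Densities rest in part on sequence that recurs in the genome. Of the windows of 28 bases along the CDS, 93.7% recur elsewhere for *Atp6v0c*, 83.0% for *Atp6v1g1*, 74.2% for *Cd63*, 62.2% for *Atp6v1f*, 38.2% for *Laptm4b*, 20.1% for *Atp6ap2*, 7.50% for *Atp6v1a* and 4.53% for *Ctsb*, and under 1% for each of the other members. Levels of the first 6 are therefore uncertain. The 8 V1 subunits, the cytosolic part of the pump, lay between 3366 and 16085 footprints per kilobase, and of the 25 lysosomal members only *Psap* and *Ctsb* were not below that range.

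Lysosomal genes were led by *Psap* with 14364 footprints per kilobase and the cysteine protease cathepsin B (*Ctsb*) with 7755, in the same group. The abundant membrane glycoprotein *Lamp1* had 2699, the aspartic protease cathepsin D (*Ctsd*) 2241, *Gaa* 2154 and *Laptm4a* 2097. Low in the order were the cholesterol exporter *Npc1* with 265, α-mannosidase (*Man2b1*) with 177 and β-galactosidase (*Glb1*) with 69.1 footprints per kilobase. The length used for *Glb1*, the union of its isoforms, was 3342 bases, while its longest single CDS had 1944, so its density may be understated. The WT mice of the LRRK2 KO table, normalized apart, had the same pair on top of each class, with 7336 for *Atp6v0c* and 5661 for *Atp6v1e1*, and 3334 for *Psap* and 1795 for *Ctsb*.

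TE of the pump was above that of the lysosome in the controls of every table. The median TE of the 15 V-ATPase members was 0.52 beside GS LRRK2 TG, 0.69 beside GS/DA LRRK2 TG and 0.038 in WT. The 25 lysosomal members had medians of -0.054, 0.24 and -0.61, and all transcripts -0.17, 0.040 and -0.64. Of the V-ATPase members, 13, 13 and 14 of 15 lay above the median of all transcripts, against 18, 18 and 13 of 25 lysosomal members.

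By group means, the ends of the pump were the same members in each table. *Atp6v1a* had the highest TE of the pump at 1.51, 1.63 and 0.70, and *Atp6v0b*, a proteolipid of the rotor ring beside *Atp6v0c*, the lowest at -0.39, -0.081 and -0.82. *Atp6ap2* had 1.34, 1.45 and 0.11 and *Atp6v0c* 0.93, 1.45 and 0.12. Among lysosomal genes, *Lamp2*, the receptor of chaperone-mediated autophagy, was highest in the transgenic tables with 1.18 and 1.29 but stood at -0.26 in WT, where *Laptm4b* was highest at -0.17, and the hexosaminidase subunit *Hexa* lowest in all 3 with -1.12, -0.90 and -1.34. Both transgenic tables use non-TG control libraries, so they are not independent in this order.

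Neither this order nor the gap between pump and lysosome was held by every library. In the deeper RNA-Seq library of non-TG control in the GS/DA LRRK2 TG table, *Atp6v0c* had 1080 reads beside mean footprints of 15531, and *Atp6v1a* 3924 beside 9581, so that *Atp6v0c* stood above. In WT the gap was 1.31 and 1.38 on the log2 scale with the shallower footprinting library, over the shallower and deeper RNA-Seq libraries, and 0.15 and -0.023 with the deeper footprinting library. In LRRK2 KO the corresponding gaps were 1.80, 1.41, 0.41 and -0.34. In non-TG control of the GS/DA LRRK2 TG table, 13 pump and 24 lysosomal members were resolved, without *Atp6v0c*, *Atp6v1b2* and *Psap*. Over these members RNA-Seq decided the gap. It was 0.41 and 0.59 over the shallower RNA-Seq library and -0.042 and 0.037 over the deeper. In GS/DA LRRK2 TG, with 15 and 24 members resolved, it was 0.13 and 0.14 over the shallower and 0.44 and 0.71 over the deeper. It was above 0 in all 4 pairings of GS LRRK2 TG, from 0.12 to 0.57. The higher TE of the pump is thus a property of the means and of most pairings, not of each library.

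**Figure D3:**
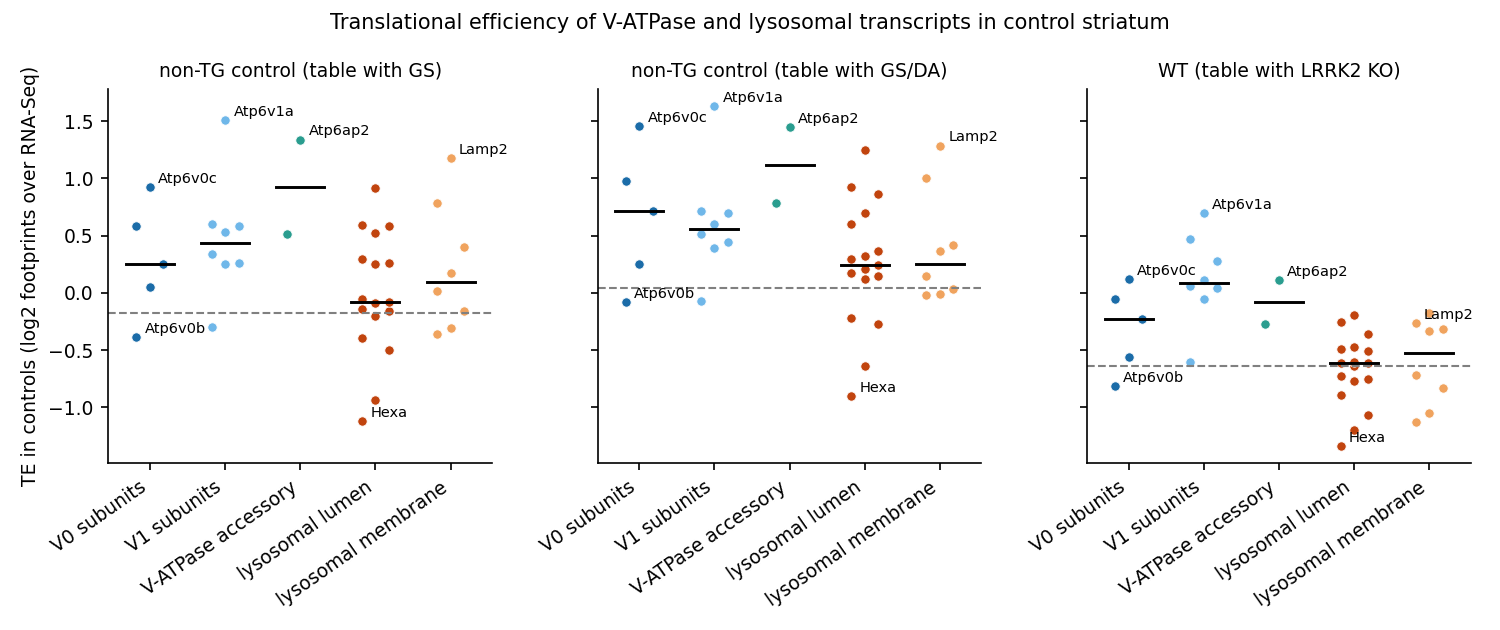
TE of each member in the controls of the 3 tables (log2 of footprinting over RNA-Seq means, vertical), by class, with black bars for class medians and a dashed line for the median of all transcripts. V1 subunits have medians of 0.43, 0.56 and 0.086 and the lumenal proteins -0.078, 0.24 and -0.61.

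Base composition and the predicted structure of the 5′UTR differed between the classes. The median GC content of the CDS was 48.4% for V1 subunits, 53.2% for V0 subunits, 54.8% for lumenal proteins and 50.1% for lysosomal membrane proteins, beside 52.9% for all transcripts of the transgenic tables. Across the 40 members, control TE was lower where GC content was higher, with Pearson values of -0.44, -0.30 and -0.45 in the order of the tables, and all transcripts gave -0.30, -0.21 and -0.32. The deposited folding energy of the 5′UTR, where a lower value means a more stable structure, had a median of -51.3 kcal/mol in the pump and -59.1 in lysosomal genes, beside -91.2 over all transcripts. The lysosomal membrane proteins had a median of -141. The extremes were the serine protease *Tpp1* at -697 and *Atp6v1f*, a subunit of the central rotor, at -7.30. *Tpp1* had a TE of 0.91 and 1.25 in the transgenic controls and -0.75 in WT, and *Atp6v1f* -0.29, -0.069 and -0.60. Over the 40 members folding energy and control TE gave Pearson values of -0.21, -0.21 and 0.12, and Spearman values of -0.086, -0.037 and 0.089, beside Pearson values of 0.15, 0.14 and 0.22 for all transcripts.

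Many lysosomal genes are known targets of the factor TFEB, which binds E-box sequences, so the promoters were searched for these letters. RefSeq promoters of GRCm38.p6, 250 bases before to 50 after the start, were matched for 33 of the 41 genes. *Atp6v1b2*, *Atp6v1c1*, *Atp6v1g1*, *Atp6v1h*, *Ctsb*, *Asah1*, *Npc1* and *Laptm4b* were not matched. The palindrome CACGTG, which reads alike on both strands, was present in 11 of 33 genes (33.3%), in 3 of 12 pump genes and 8 of 21 lysosomal genes, and in 8.11% of the genes of the whole promoter table and 7.17% of its promoters. The longer palindrome TCACGTGA, which contains it, was present in 5 of 33 (15.2%) against 1.14% of all genes and 0.983% of all promoters. The 5 genes are shown because they include both the pump and the lysosome, with the longer palindrome in capitals and the strand of the gene:
*Atp6v0d1*, chr8:105566051-105566078, minus strand: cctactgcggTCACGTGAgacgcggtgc
*Atp6v1a*, chr16:44139374-44139401, minus strand: tttttttaaaTCACGTGAtaggcttaac
*Ctsa*, chr2:164833750-164833777, plus strand: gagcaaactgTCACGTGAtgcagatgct
*Ctsd*, chr7:142387909-142387936, minus strand: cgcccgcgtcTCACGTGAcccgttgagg
*Mcoln1*, chr8:3500463-3500490, plus strand: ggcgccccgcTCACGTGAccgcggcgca
A match describes the letters of these windows and was not tested for binding.

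GS LRRK2 TG mice were set against non-TG control to ask what the active kinase does. Neither class of members differed much from its control. Footprints of the V-ATPase members had a median log2 difference of 0.018, with 10 of 15 above 0, and those of lysosomal members 0.071, with 19 of 25 above 0, where 51.2% of all transcripts lay above 0. RNA-Seq gave 0.021 for the pump, with 9 of 15 above 0, and 0.098 for the lysosome, with 19 of 25 above 0, where 44.3% of all transcripts did. TE differences had medians of -0.020 and -0.024, with 6 of 15 and 10 of 25 above 0 beside 54.8% of all transcripts.

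All 5 V0 subunits had TE differences below 0, from -0.010 for *Atp6v0e2* to -0.21 for *Atp6v0b*, and 5 of 8 V1 subunits had TE differences above 0, up to 0.21 for the stalk subunit *Atp6v1c1*. The V0 subunits also have more GC in their CDS, and over the 40 members the TE difference gave a Pearson value of -0.60 with GC content, beside -0.44 for all transcripts. *Atp6v0b* had mean footprints of 1672 in non-TG control and 1647 in GS LRRK2 TG, and RNA-Seq means of 2184 and 2488. *Atp6v1f* was next lowest in the pump with a TE difference of -0.15. These directions rest on single RNA-Seq libraries of GS LRRK2 TG: without the shallower, *Atp6v0b* had 0.99, *Atp6v1f* 0.043 and *Atp6v1c1* -0.27, and without the deeper -0.86, -0.32 and 0.94. *Atp6v0c* had 11887 and 1106 reads in these libraries beside a control mean of 6453, and *Atp6v0e2* 2442 and 277 beside 1340.

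*Atp6ap2* and *Lamp2* had the highest TE differences of their classes, 0.38 for each. For *Atp6ap2*, mean footprints were 3402 in non-TG control and 3579 in GS LRRK2 TG, and RNA-Seq means 1345 and 1090. For *Lamp2*, footprints were 1099 and 1239, and RNA-Seq means 485 and 419. The log2 differences were 0.073 in footprinting and -0.30 in RNA-Seq for *Atp6ap2*, and 0.17 and -0.21 for *Lamp2*. The RNA-Seq libraries of GS LRRK2 TG stood at 662 and 1518 for *Atp6ap2* and at 221 and 617 for *Lamp2*, on both sides of the control mean. Acid ceramidase (*Asah1*), which degrades ceramide, had a TE difference of 0.25. Lowest among lysosomal genes were *Hexa* at -0.30, with footprints of 479 and 471 and RNA-Seq means of 1040 and 1257, and the calcium channel *Mcoln1* at -0.19. Without the shallower RNA-Seq library the TE differences of *Atp6ap2*, *Lamp2*, *Asah1* and *Mcoln1* were -0.10, -0.17, -0.059 and 0.52, each on the other side of 0, while *Hexa* stayed below 0 at -0.10.

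Footprints of the lysosomal membrane proteins were highest as a group in GS LRRK2 TG, with a median of 0.15 and 7 of 8 above 0, while 12 further lysosomal membrane genes had a median of 0.0022. *Scarb2*, the transport receptor of glucocerebrosidase, had 1208 and 1369, and *Lamp1* 3287 and 3701. The exception was *Mcoln1*, at 579 and 516. By library, *Scarb2* had 1549 in the shallower and 1188 in the deeper footprinting library, on both sides of its control mean. *Lamp2* had 1417 and 1060 against 1099, and *Laptm4b* 689 and 613 against 616. *Lamp1* had 3843 and 3560, both above its control. No test per transcript could be made for GS LRRK2 TG because its control libraries were not recovered. Without the shallower footprinting library, the pump median in footprints was -0.15 and the lysosomal median -0.0063, and without the deeper they were 0.19 and 0.14. Without the shallower RNA-Seq library the lysosomal median in TE was 0.37 and without the deeper -0.39, so its direction rests on the choice of library, as does that of the pump, with 0.024 and -0.18. In RNA-Seq the lysosomal median was -0.24 and 0.44 and the pump median 0.048 and 0.18 in the same order, and the pump median in TE was -0.17 and 0.14 without the shallower and deeper footprinting library.

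GS/DA LRRK2 TG mice, with a dead kinase at a high level, were set against non-TG control to separate the kinase from the protein. Footprints of the V-ATPase members had a median log2 difference of 0.041, with 13 of 15 above 0, and those of lysosomal members 0.049, with 18 of 25 above 0, where 47.5% of all transcripts lay above 0. In RNA-Seq, 11 of 15 and 18 of 25 members lay above 0, as did 64.7% of all transcripts, with medians of 0.075 and 0.050 beside 0.055. Sums of marker lists differed as well in footprinting and RNA-Seq, by 1.23 and 1.06 for cortical projection neurons and -1.46 and -0.81 for choroid plexus. Striatal spiny neurons gave -0.31 and -0.18, astrocytes 0.083 and 0.094, and oligodendrocytes 0.023 and 0.073. The microglia list is left out, and the part of cell composition was not tested. TE differences had medians of -0.0030 and -0.021, with 7 of 15 and 10 of 25 above 0, beside 33.5% and a median of -0.055 over all transcripts.

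All 5 V0 subunits and both accessory proteins had footprints and RNA-Seq means above those of non-TG control. In RNA-Seq this rests on the deeper library of GS/DA LRRK2 TG for the V0 subunits and *Atp6ap1*. In the shallower library, V0 reads were below the control mean for each subunit, such as 302 against 1221 for *Atp6v0e2*. For *Atp6ap2* it rests on the shallower library, with 2587 reads there and 1038 in the deeper, against a control mean of 1578. Library batches were matched from the values, separately in each assay, so a batch number does not join footprinting to RNA-Seq. Within RNA-Seq batch 2, *Atp6v0b* had -0.069 and *Atp6v0e2* -0.061, and within footprinting batch 1 *Atp6v0e2* had -0.036. *Atp6ap2* had -0.26 within batch 1 and 0.43 within batch 2 in RNA-Seq. *Atp6v0a1* had 4984 and 4994 footprints in the non-TG control libraries and 5648 and 6107 in those of GS/DA LRRK2 TG, with a log2 difference of 0.24. *Atp6v1a* had 8297 and 10865 in non-TG control and 9453 and 12655 in GS/DA LRRK2 TG, with a difference of 0.21. TE was highest for *Atp6v1f* at 0.13 and the stator subunit *Atp6v1g1* at 0.11, and lowest for *Atp6ap2* at -0.12 and *Atp6v0e2* at -0.069. With a library left out, these 4 ran from -0.16 to 0.50, from -0.069 to 0.27, from -0.63 to 0.68 and from -2.03 to 2.04.

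Lysosomal genes differed little in either assay. Palmitoyl-protein thioesterase *Ppt1* had the highest TE difference, 0.17, with 1106 and 1502 footprints in non-TG control against 1257 and 1365 in GS/DA LRRK2 TG, and RNA-Seq reads of 896 and 1131 against 962 and 846. *Ctsz*, a carboxypeptidase, had a TE difference of 0.13. *Man2b1* was lowest at -0.23, with 587 and 739 footprints against 579 and 823, and RNA-Seq reads of 739 and 341 against 422 and 917. *Asah1* had -0.12, on the other side of 0 from its value in GS LRRK2 TG. The libraries of both groups overlapped in each assay for *Ppt1* and *Man2b1*, and with a library left out *Ppt1* ran from -0.032 to 0.41, *Ctsz* from -0.062 to 0.35, *Man2b1* from -0.89 to 0.44 and *Asah1* from -0.59 to 0.57. Within matched library batches, *Man2b1* had RNA-Seq differences of 0.31 in both and TE differences from -0.33 to -0.15. It was among 3 members whose TE difference kept its sign in all pairings, beside 34 that did not. Of all transcripts, 17.95% kept theirs.

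By limma over 8417 transcripts, 37 of them members, no transcript passed a Benjamini-Hochberg adjusted p of 0.05 in footprinting, RNA-Seq or TE. The share called was 0% in each, and 2, 2 and 0 transcripts, none of them a member, had an unadjusted p under 0.05. Both assays shared an estimate of the spread per transcript in this fit. *Lrrk2* footprints, at 4766 and 7267 against 1224 and 1445, did not pass either, so the lack of calls does not show that members are alike. With the assays fitted separately, 142 transcripts in footprinting and 0 in RNA-Seq had an unadjusted p under 0.05, none of them a member. With a block for the library batch, *Atp6v0a1* in footprinting and *Man2b1* in RNA-Seq were the members with an unadjusted p under 0.05, beside 255 and 368 of all 8417 transcripts, and neither passed the adjusted one (adjusted p = 1.00 and 0.998, with log2 differences of 0.23 ± 0.083 and 0.30 ± 0.11, SE, n = 2 libraries in each group). Leaving out the deeper RNA-Seq library of GS/DA LRRK2 TG gave -0.17 for the pump in RNA-Seq and 0.40 for the lysosome in TE, and leaving out the shallower gave 0.20 and -0.30. Leaving out non-TG control RNA-Seq libraries gave -0.026 (shallower) and -0.068 (deeper) for the pump in RNA-Seq, and 0.29 and -0.20 for the lysosome. The pump median in footprinting was -0.0051 without the shallower non-TG control library and -0.019 without the deeper GS/DA LRRK2 TG library. Within library batches 1 and 2, matched from the values, it was 0.031 and 0.082, and the lysosomal median 0.057 and 0.032.

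LRRK2 KO mice were set against WT to ask what the loss of LRRK2 does. The pump had lower RNA-Seq means and nearly equal footprints: the median log2 difference of the 15 V-ATPase members was -0.25 in RNA-Seq, with 3 of 15 above 0, and 0.023 in footprinting, with 10 of 15 above 0. Lysosomal members had medians of -0.057 in RNA-Seq, with 9 of 25 above 0, and 0.12 in footprinting, with 21 of 25 above 0. Among all transcripts, 51.3% lay above 0 in RNA-Seq and 54.4% in footprinting. Summed RNA-Seq reads of marker lists differed as well, by -0.52 for choroid plexus, -0.26 for cortical projection neurons, -0.19 for astrocytes, -0.093 for oligodendrocytes and 0.11 for striatal spiny neurons. The microglia list is again left out. TE differences were above 0 in 13 of 15 pump genes and 23 of 25 lysosomal genes, 36 of the 40 members beside 53% of all transcripts, with medians of 0.24 and 0.14 beside 0.017.

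*Atp6ap2* had the highest TE difference of all members, 0.74. Its footprints were 588 and 1132 in WT and 543 and 1410 in LRRK2 KO, and its RNA-Seq reads 1281 and 309 in WT and 827 and 257 in LRRK2 KO. *Atp6v1a* had a TE difference of 0.55, with footprints of 4261 and 3427 against 4224 and 3424, and RNA-Seq reads of 3452 and 1287 against 1821 and 1395. Its footprints were alike in both genotypes, and the shallower WT RNA-Seq library stood above the other 3 libraries. *Atp6v0b* and *Atp6v1f* were the only pump genes below 0, at -0.16 and -0.080. *Atp6v0b* had RNA-Seq reads of 1167 and 611 in WT and 1355 and 667 in LRRK2 KO.

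*Lamp2* and *Laptm4b*, a membrane protein that takes part in amino acid transport to the lysosome, had the highest TE differences of the lysosome, 0.62 and 0.61. *Lamp2* had 164 and 273 footprints in WT against 157 and 388 in LRRK2 KO, and RNA-Seq reads of 365 and 159 against 287 and 138. *Laptm4b* had 91.9 and 212 footprints against 76.9 and 263, and RNA-Seq reads of 272 and 70.3 against 205 and 45.7. *Man2b1* at -0.43 and the cholesterol carrier *Npc2* at -0.12 were the only lysosomal genes below 0. *Man2b1* had RNA-Seq reads of 210 and 220 in WT and 351 and 203 in LRRK2 KO, so that its difference rests on the shallower LRRK2 KO library.

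**Figure D4:**
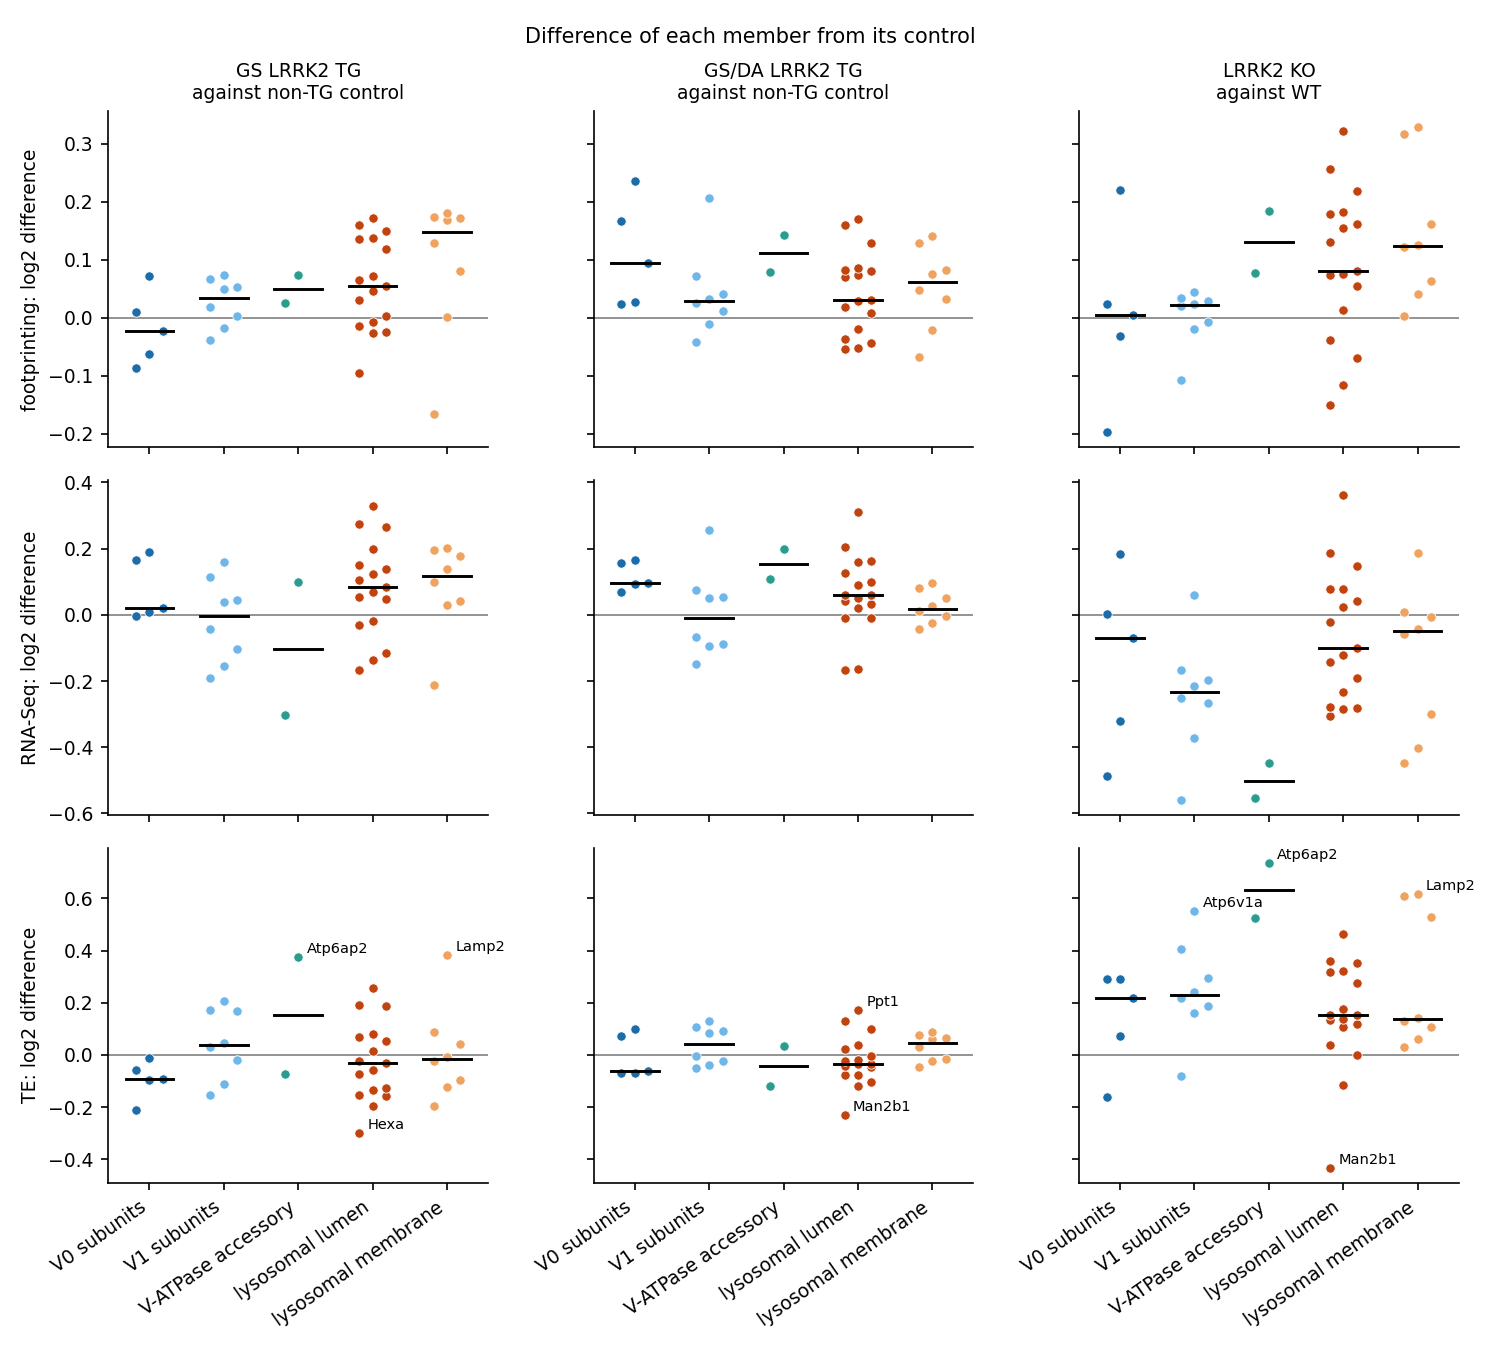
Log2 difference of each member from its control (vertical) in footprinting, RNA-Seq and TE (from the top) for GS LRRK2 TG (left), GS/DA LRRK2 TG (middle) and LRRK2 KO (right), by class, with black bars for class medians. TE differences of LRRK2 KO lie above 0 for 36 of 40 members, up to 0.74 for *Atp6ap2*, and those of GS/DA LRRK2 TG lie between -0.23 and 0.17.

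Libraries were next compared like with like, the shallower of LRRK2 KO with the shallower of WT and the deeper with the deeper, a matching read from the values because the labels give no batch. Lysosomal footprints were lower in LRRK2 KO between the shallower libraries, with a median of -0.19 and 5 of 25 above 0. Between the deeper libraries they were higher, with 0.18 and 23 of 25 above 0. The RNA-Seq medians of the pump were -0.40 between the shallower and -0.037 between the deeper libraries. TE of the pump was 0.34 and 0.51 with the shallower RNA-Seq libraries and 0.026 and 0.043 with the deeper, and TE of the lysosome ran from -0.14 in the shallower libraries of both assays to 0.38 in the deeper of both.

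Members whose TE difference kept its sign in all 4 pairings numbered 14 of 40, 13 above 0 and 1 below, beside 12.4% above and 11.4% below among all transcripts. *Atp6ap2*, with values from 0.15 to 0.95, *Lamp2*, from 0.14 to 0.85, and *Laptm4b*, from 0.15 to 0.93, were among those above 0, and *Atp6v0b*, from -0.21 to -0.048, was below. *Atp6v1a* was not, with values from -0.13 to 0.92. With a single library left out and no matching, each named member took both signs: *Atp6ap2* was -0.63, *Atp6v1a* -0.33 and *Laptm4b* -0.67 without the shallower WT RNA-Seq library, and *Lamp2* was -0.18 without the deeper LRRK2 KO footprinting library. *Atp6v0b* was 0.72 and *Man2b1* 0.48 without the deeper WT footprinting library, *Npc2* 0.34 without the shallower LRRK2 KO footprinting library and *Atp6v1f* 0.11 without the shallower LRRK2 KO RNA-Seq library.

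By limma over 9551 transcripts, 40 of them members, no transcript passed a Benjamini-Hochberg adjusted p of 0.05 in footprinting, RNA-Seq or TE, a share called of 0% in each. At an unadjusted p under 0.05 there were 13, 7 and 2 transcripts and no member. *Lrrk2* footprints, at 150 and 102 in LRRK2 KO against 690 and 400 in WT, did not pass in this fit, so the lack of calls does not show that members are alike. The TE difference of *Atp6ap2* in this fit was 0.54 ± 1.19 (SE, n = 2 libraries in each group), smaller than its error. With the library batch as a block the error was 0.25 and the adjusted p = 1.00, and *Atp6ap2* was the only member among 166 transcripts with an unadjusted p under 0.05 in TE. In that fit *Atp6ap2*, *Atp6v0c*, *Atp6v1a* and *Laptm4b* had an unadjusted p under 0.05 in RNA-Seq, beside 507 of all 9551 transcripts, with adjusted p = 0.886 each. Without the shallower WT RNA-Seq library the pump medians were 0.20 in RNA-Seq and -0.19 in TE and the lysosomal ones 0.43 and -0.23, and without the deeper LRRK2 KO RNA-Seq library 0.011 and 0.046, and 0.34 and -0.26. Lysosomal medians without the shallower WT footprinting library were -0.41 in footprinting and -0.37 in TE. Without the deeper LRRK2 KO footprinting library the TE medians of pump and lysosome were 0.028 and -0.91, and without the deeper WT footprinting library 0.35 and 1.06, where lysosomal footprints had medians of -0.98 and 0.94.

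The genotypes are set side by side by their own values. *Atp6ap2* had TE differences of 0.38 in GS LRRK2 TG, -0.12 in GS/DA LRRK2 TG and 0.74 in LRRK2 KO, *Lamp2* 0.38, -0.047 and 0.62, and *Man2b1* -0.15, -0.23 and -0.43. *Atp6v1f* had -0.15, 0.13 and -0.080. Whether these differ between genotypes was not tested, since the transgenic comparisons share controls and the tables were normalized apart.

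A list of 83 other genes of the lysosome, the V-ATPase, its assembly and its regulators was read in the same way. Of these, 45 were listed in each transgenic table and 51 in the LRRK2 KO table, with median TE differences of -0.0035, -0.053 and 0.030. None passed the adjusted p of limma in GS/DA LRRK2 TG or LRRK2 KO. In LRRK2 KO the highest was *Tmem106b*, a lysosomal membrane protein linked to frontotemporal dementia, at 0.76, with mean footprints of 381 in WT and 457 in LRRK2 KO and RNA-Seq means of 296 and 209. The iduronidase *Idua* at 0.65 and *Lmbrd1*, which takes part in cobalamin export, at 0.57 followed, and the V0 isoform *Atp6v0a2* was lowest at -0.44. In GS LRRK2 TG the range ran from -0.37 for *Spns1* and *Clcn7* to 0.41 for *Ostm1*, the partner of the chloride exchanger *Clcn7*. In GS/DA LRRK2 TG it ran from -0.38 for *Ncoa7* and for *Dmxl1*, a factor of V-ATPase assembly, to 0.21 for *Cln8* and *Atp6ap1l*.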

How the data were processed

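The authors aligned footprints and RNA-Seq to mm9 with TopHat 2.0.11 and Bowtie2 2.2.2, counted reads in the CDS and normalized them with DESeq 1.20; these means, as deposited, are the signal used and carry no error. The score of 5′UTR structure is the folding energy that the authors took from a UCSC annotation. The deposited TE, TE difference and *z* columns, which hold the authors' own log2 values, were not used, and 0 per-sample columns existed to be left unused. TE was computed with a pseudocount of 0 on all listed transcripts. Reads per library were recovered from the step sizes in means of 2 libraries for at least 98.7% of transcripts; the method was tested on simulated data. limma 3.58.1 in R 4.3.3 (lmFit, eBayes with trend, two-sided, Benjamini-Hochberg over all transcripts) ran on log2 of normalized reads plus 10, with genotype by assay means. The tables do not state which labelled libraries enter a mean; the ventral midbrain libraries were not analysed here. The members and lists were chosen with earlier results of these data known, and the 2 highest and 2 lowest TE differences of each class were named by rule, besides members singled out by level, role or a library after their values were seen; so was the split of the pump by site of synthesis. CDS lengths are of the union of annotated isoforms in NCBIM37. Python 3.11.15, numpy 2.4.6, pandas 2.3.3, pysam 0.24.0 and matplotlib 3.10.9 were used. Alternatives were another pseudocount, minimum means, 1 transcript per symbol, centring, a GC correction, other scalings, library batches and leaving out each library. Lists of cell type markers were microglia (not used here), astrocyte, oligodendrocyte, choroid plexus, endothelium, striatal spiny neuron and cortical projection neuron.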

Additional observations from a re-analysis of the deposited data

How the results depend on the processing

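Of 244 alternative values of the 18 class medians, 60 changed sign and 13 moved beyond the spread between libraries; the cause was not tested. Pump medians in RNA-Seq with a library left out ran from 0.048 to 0.18 in GS LRRK2 TG and from -0.17 to 0.20 in GS/DA LRRK2 TG. The lysosomal footprinting median of GS/DA LRRK2 TG was 0.036 with upper-quartile scaling, 0.032 within library batch 2 and 0.035 to 0.068 with a library left out, and its TE median -0.30 to 0.40. The pump footprinting median of LRRK2 KO was -0.034 after removal of a linear fit on GC content, -0.015 and 0.062 within library batches 1 and 2, and -0.042 to 0.049 with a library left out. With the library-batch block, limma called 1 transcript in GS/DA LRRK2 TG footprinting, 6 in LRRK2 KO footprinting and 8 in LRRK2 KO RNA-Seq, none of them a member.

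No paired analysis was possible from replicate numbers, because the recovered libraries carry none that joins both assays, and the replicate block was not run for that reason. The mapped reads that the paper lists for each sample were not used to join libraries, so a pairing by sequencing depth was not tested. The library batches above were matched from the values instead. For GS LRRK2 TG, the mean of log2 over libraries, upper-quartile scaling, library batches, leaving out a control library and limma could not be run because its control libraries were not recovered.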

Other observations

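Marker lists of cell types were summed in each table, and the microglia list is left out here. Striatal spiny neuron markers were all listed (11 of 11), led by *Ppp1r1b*, with log2 differences of summed footprints of -0.12 in GS LRRK2 TG, -0.31 in GS/DA LRRK2 TG and 0.052 in LRRK2 KO. Astrocyte markers (8 of 8 listed) gave 0.065, 0.083 and -0.030, and oligodendrocyte markers (8 of 8 listed) 0.16, 0.023 and -0.0099. Choroid plexus markers (2 of 6 listed) gave -2.14, -1.46 and -0.0043. In GS/DA LRRK2 TG this rests on the shallower non-TG control library, since the sums were 17613 and 1489 in the non-TG control libraries against a mean of 3483. *Ttr* stood at 3944 footprints in non-TG control and 723 in GS LRRK2 TG. Cortical projection neuron markers gave -0.20 and 1.23 with 4 of 6 listed and -0.096 with 6 of 6 listed. In GS LRRK2 TG their sums were 2483 in the shallower and 575 in the deeper library, on both sides of the control sum of 1757. Of the endothelium markers, 0 of 4 were listed.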
